A study of Mus musculus with 6 samples.

Results

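Mitochondria make ATP by passing electrons along a chain of protein complexes in their inner membrane. Complex I (NADH dehydrogenase) and complex II (succinate dehydrogenase) take electrons in, complex III passes them to cytochrome c, complex IV (cytochrome c oxidase) hands them to oxygen, and ATP synthase uses the resulting proton gradient. Most subunits are encoded in the nucleus and a few on the mitochondrial DNA. Tissues with a high energy demand, such as muscle and brown fat, hold the most of these complexes, and some subunits of complex IV have a form that is enriched in muscle beside a widely expressed form.

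The genes described here are the nuclear-encoded subunits, taken as the protein-coding genes whose symbols begin with Nduf followed by a, b, c, s or v and a digit, with Uqcr, with Cox4 to Cox8 or with Atp5, together with Sdha, Sdhb, Sdhc and Sdhd. The rule gave 86 of the 55291 genes in the deposited tables. A further 15 genes with such symbols were not protein coding and were left out. Of the 86, 36 belong to complex I, 4 to complex II, 8 to complex III, 18 to complex IV and 17 to ATP synthase. Ndufa4l2 and Cox7a2l are named like subunits but have another role, Ndufa4l2 as an inhibitor of complex I and Cox7a2l as a factor that joins complexes into larger assemblies. Cox5b-ps, whose symbol marks a copy of Cox5b, was given no role.

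RNA came from shaved dorsal skin of 3 TSK (tight skin) mice and 3 WT littermates on the C57BL/6 background, with no other treatment. TSK mice carry an internal duplication of Fbn1, which encodes fibrillin 1, a protein of elastic microfibrils, in the germline. The labels give an age of 6 to 8 weeks and female sex, whereas the methods of the study give males, so the sex of the mice is uncertain. Fbn1 was counted 4684, 5420 and 4765 times in the WT libraries and 27971, 43910 and 37855 times in the TSK libraries, which matched the genotype labels. Library totals were 17561453 to 19219814 counts, and values are given as CPM, a count scaled to a library total of 1000000.

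No respiratory gene passed the test between TSK and WT skin. With edgeR's quasi-likelihood test, 0 of the 83 members tested were higher and 0 were lower at an adjusted p below 0.05. Over all 19971 genes tested, 2.71% were higher and 0.681% were lower, counts of 542 and 136 that moved to between 45 (without WT 3) and 713 (without WT 1) higher and between 15 and 547 lower, for the same libraries, when 1 library was left out. At an unadjusted p below 0.05 there were 2 members, Cox6a1 and Cox4i2, both of complex IV and both with higher values in TSK, and 0 with lower values, against 12.1% higher and 7.90% lower among all genes. The count of lower members at this unadjusted threshold rested on single libraries, with 35 of 83 without WT 1 (10.1% of all genes) and 15 of 83 without TSK 2 (6.3% of all genes), and 0 called in either case. DESeq2 covered 34809 genes and 85 members. It called 1 member higher, Cox6a1, and among all these genes 1135 higher and 409 lower. The 3 members not tested with edgeR, Cox6b2, Cox7b2 and Cox8c, are forms known from testis and were too low for its filter on low counts. Cox6b2 had 2 to 13 counts per library, Cox7b2 had 0 or 1, and Cox8c had 0 in every library.

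Summed over the members, mice of the same genotype differed by more than the genotypes did. Their share of all counts was 0.622%, 0.950% and 0.886% in the WT libraries (mice 1 to 3) and 0.829%, 1.091% and 0.656% in the TSK libraries. The ranges overlapped in part, with the lowest share in WT 1 and the highest in TSK 2. Summed CPM was 8195 ± 1741 in WT and 8589 ± 2190 in TSK (SD, n = 3), and the highest library of a group held 1.53 times the lowest in WT and 1.66 times the lowest in TSK. Nearly every member followed the same order. In CPM, WT 1 had the lowest WT value for 76 of the 83 tested members, TSK 2 the highest TSK value for 82, and TSK 3 the lowest TSK value for 81.

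**Figure D1:**
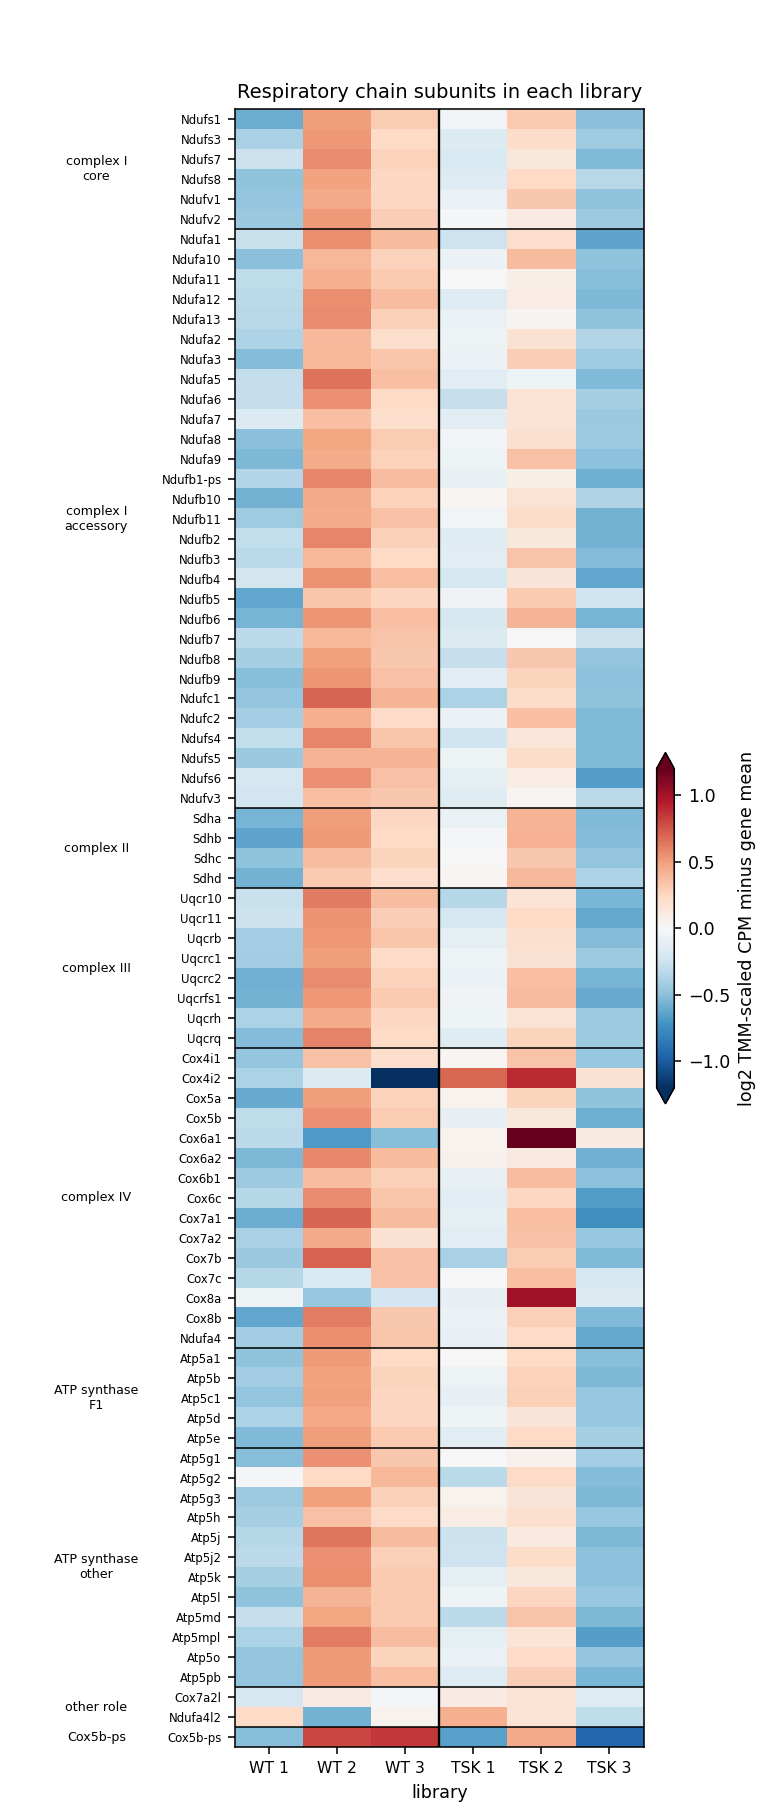
Each row is a tested member (82 of 83), grouped by complex, and each column 1 library; colour gives log2 TMM-scaled CPM minus the mean of the gene over the 6 libraries, and colours stop at the ends of the scale. WT 1 and TSK 3 are low and WT 2 is high for most rows, and Cox6a1, Cox8a and Cox4i2 in complex IV do not follow that order.

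The direction of the small shift depended on how libraries were scaled. TMM, which scales libraries so that most genes do not differ, gave factors of 0.823 to 1.025 for WT and 1.063 to 1.129 for TSK. On that scale the median log2 fold change (TSK minus WT) of the members was -0.26 and that of all tested genes was -0.03, with 76 members below 0 and 7 above, whereas scaling by library size only gave a median of 0.05 for the members and 0.25 for all genes, with 51 members above 0. The members' median therefore lay 0.23 below that of all genes with TMM and 0.20 below it with library size. Leaving out 1 library moved the members' median on the TMM scale to -0.47 without WT 1, -0.44 without TSK 2, -0.09 without TSK 3 and -0.05 without WT 2, with 0 called each time. The SD between mice of a genotype of the members' median log2 CPM was 0.44. For single members, the median standard error was 0.26 (0.14 to 0.45) and the median 95% interval ran from -0.86 to 0.35. For 69 of the 83 members the interval left out a halving (a log2 fold change of -1), and for 80 it left out a doubling. In bulk skin, fewer cells of a type and less RNA per cell cannot be told apart.

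By complex, the median log2 fold change on the TMM scale was -0.28 for the 36 members of complex I, -0.11 for complex II, -0.25 for complex III, -0.17 for the 15 tested members of complex IV and -0.25 for the 17 of ATP synthase. All members tested from complexes I and III and from ATP synthase lay below 0 on this scale. All but Cox6a1, Cox4i2, Cox8a and Cox7c did so in complex IV, and all but Sdhd in complex II. None of these passed the test, and with library size only the members as a whole moved above 0, as given above. Differences between complexes were not tested.

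**Figure D2:**
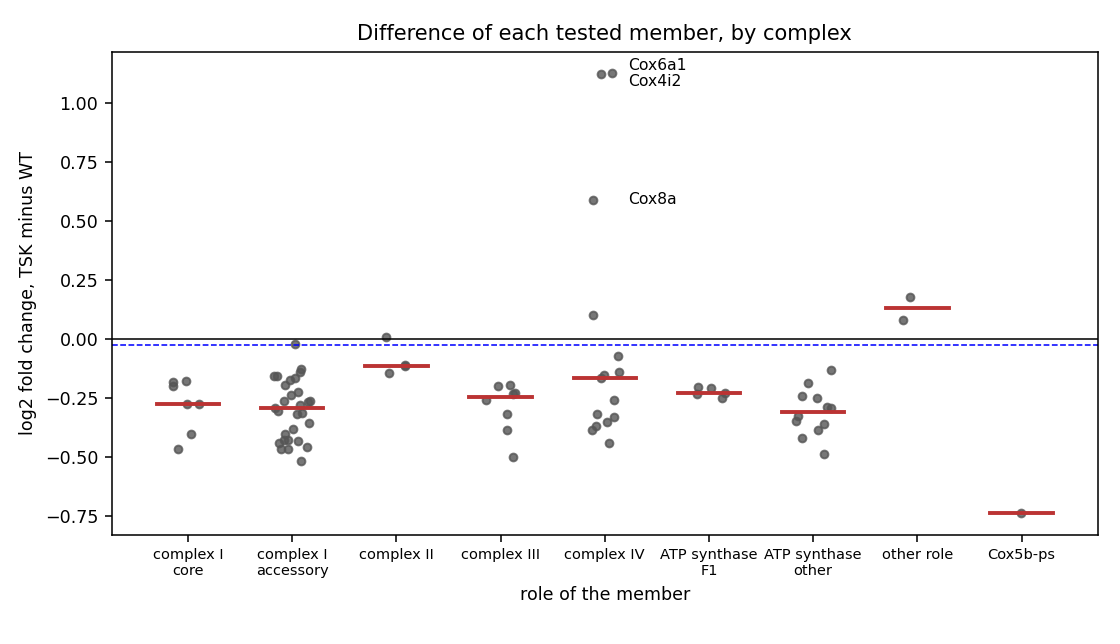
Points are the log2 fold changes (TSK minus WT, TMM scale) of the 83 tested members by role, red lines the median of each role, and the dashed line the median of all tested genes at -0.03. Most points lie between -0.6 and 0, a position that moves above 0 for 51 of 83 members when libraries are scaled by size only, and Cox6a1, Cox4i2 and Cox8a stand above the rest.

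Complex I carries nuclear core subunits, some of which bind the flavin and iron-sulfur clusters that pass electrons on from NADH. Ndufv1, which binds the flavin and NADH, was at 80.2, 122 and 114 CPM in WT and at 108, 150 and 87.4 CPM in TSK. Ndufs1, the largest core subunit, was at 102.5, 175.5 and 165.6 CPM in WT and at 157.0, 208.8 and 119.9 CPM in TSK. For both the groups overlapped. TSK 2 was the highest library in CPM, whereas WT 2 was the highest on the TMM scale. Log2 fold changes here and below are on the TMM scale unless another scaling is named. They were -0.40 ± 0.23 (SE) for Ndufs7, -0.27 for Ndufs3, -0.27 for Ndufv2, -0.20 for Ndufs8, -0.18 for Ndufs1 and -0.18 for Ndufv1, with edgeR adjusted p-values of 0.386 to 0.789. Transcripts of Ndufs3 match other annotated genes, chiefly Gm12251, over 84.1% of their length, so its counts may be shared. Of the 29 accessory subunits, Ndufa5 lay lowest (-0.52 ± 0.24, adjusted p = 0.27) and Ndufb5 highest (-0.02 ± 0.25).

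Complex II also works in the citric acid cycle and is encoded wholly in the nucleus. Sdha, its flavoprotein, was at 205.0, 341.8 and 309.3 CPM in WT and at 295.7, 435.0 and 229.9 CPM in TSK. Sdhb, the iron-sulfur subunit, was at 63.7, 113 and 101 CPM in WT and at 100.5, 142.7 and 75.7 CPM in TSK. The membrane anchors Sdhc and Sdhd had the same order of libraries within TSK, with the highest value in TSK 2 and the lowest in TSK 3. Log2 fold changes were -0.14 for Sdha, -0.11 for Sdhb, -0.11 for Sdhc and 0.01 for Sdhd, with standard errors of 0.26 to 0.31.

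In complex III, Uqcr10, a small subunit, lay lowest at -0.50 ± 0.25 (adjusted p = 0.32). Uqcrc1, a core protein and the most abundant of the complex in CPM, was at 176.5, 267.6 and 238.5 CPM in WT and at 234.3, 290.9 and 191.8 CPM in TSK, a log2 fold change of -0.23 ± 0.25. In ATP synthase, the catalytic subunit Atp5b was the most abundant member, also per length of transcript. It was at 356.28, 534.81 and 493.75 CPM per kb in WT and at 471.69, 626.69 and 360.30 CPM per kb in TSK. Next per length came Atp5a1, the other large subunit of the same head (mean 302.94 CPM per kb over the 6 libraries), and Cox4i1 of complex IV (282.89). The log2 fold changes of the 5 subunits of the F1 head lay within -0.25 to -0.20, and Atp5j, a stalk subunit, lay lowest in the enzyme at -0.49 ± 0.26 (adjusted p = 0.34).

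After TMM scaling, 2 of the 15 tested members of complex IV had groups that did not overlap, both higher in TSK, against 14.1% of all tested genes. Cox6a1, the widely expressed form of subunit 6A, was at 22.7, 14.1 and 17.1 CPM in WT and at 30.1, 78.0 and 33.3 CPM in TSK. All TSK libraries lay above all WT libraries, and TSK 2 stood far above the other two. The log2 fold change was 1.13 ± 0.33 (95% interval 0.36 to 1.89), with an edgeR adjusted p of 0.106. Without TSK 2 it was 0.57, with an adjusted p of 0.12. Cox6a1 passed an adjusted p of 0.05 under 4 of the alternatives, with adjusted p-values of 0.0151 in DESeq2, 0.0242 with no filter on low counts, 0.0361 with library size only and 0.0391 in limma on log2(CPM + 1). In this order these fits called 1135 and 1040 of 34809 genes higher and 1685 and 1771 of 19971, against 542 in the reported test.

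Cox4i2, a form of subunit 4 known from lung and from oxygen-sensing cells, was counted only 8, 8 and 4 times in WT and 18, 23 and 14 times in TSK. These groups did not overlap either, and the log2 fold change was 1.12 ± 0.40 (edgeR adjusted p = 0.17). Its partner Cox4i1, the general form, was at 157.3, 222.2 and 217.5 CPM in WT and at 229.0, 298.5 and 174.1 CPM in TSK. Over all tested genes, 14.1% had every TSK library above every WT library on the TMM scale and 10.6% had every one below. Among the members these were 2 above and 0 below. In the deposited CPM, with no TMM scaling, 29.1% of all tested genes had every TSK library above every WT library and 2.58% every one below. There 4 of the 83 tested members lay above (Cox8a and Cox7a2l added) and 0 below. Cox7a2l was at 55.6, 55.3 and 54.7 CPM in WT and at 71.3, 78.8 and 63.3 CPM in TSK, with a log2 fold change of only 0.08 ± 0.14 on the TMM scale. Ndufa4l2, the other member with a different role, was at 16.3, 7.45 and 12.3 CPM in WT and at 19.2, 16.8 and 12.3 CPM in TSK, and its groups overlapped (0.18 ± 0.25).

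Cox8a, the widely expressed form of subunit 8, was at 25.6, 15.5 and 19.6 CPM in WT and at 25.6, 58.0 and 26.1 CPM in TSK. WT 1 and TSK 1 were nearly equal, and TSK 2 alone was far above the rest. Its log2 fold change was 0.59 ± 0.30 (edgeR adjusted p = 0.32) and 0.10 without TSK 2. Cox7c, a further subunit of complex IV, had a log2 fold change of 0.10 ± 0.22. Cox7c holds fewer counts (192 to 389 per library) than its annotated copy Cox7c-ps1 (878 to 2070), and the split of reads between them is uncertain. The lowest member of all, Cox5b-ps (-0.74 ± 0.45), matches Cox5b over its whole length, and its 384 counts in all libraries may belong to Cox5b.

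As background, 3 pairs of complex IV subunits are known to have a form enriched in muscle and a widely expressed form, here Cox6a2 and Cox6a1, Cox7a1 and Cox7a2, and Cox8b and Cox8a. Cox8b is also known from brown fat. In mm10, Cox6a2 spans chr7:128205435-128206387 and Cox6a1 spans chr5:115345642-115348981, both on the minus strand. Within a pair, the share of counts held by the muscle form does not depend on the scaling of libraries. Cox6a2 held 82.7%, 93.1% and 91.2% of its pair in WT and 84.9%, 70.5% and 77.8% in TSK. TSK 1 lay within the WT values, and the other TSK libraries lay below them. The means were 89.0% ± 5.50 and 77.7% ± 7.22 (SD, n = 3), a difference of -11.28 points (two-sided exact permutation p = 0.2, and 0.45 adjusted over the 3 pairs).

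Cox8b held 67.7%, 86.8% and 82.0% of its pair in WT and 76.1%, 65.4% and 70.8% in TSK. The groups overlapped, with a difference of -8.06 points (exact permutation p = 0.3, adjusted 0.45). Cox7a1 held 53.4%, 61.1% and 60.4% in WT and 57.3%, 57.3% and 52.3% in TSK, which also overlapped, with a difference of -2.67 points (exact permutation p = 0.5, adjusted 0.5). With 3 mice against 3 this test cannot give a p below 0.1. The muscle forms overlapped between the groups in CPM, and on the TMM scale their log2 fold changes were -0.32 ± 0.29 for Cox6a2, -0.35 ± 0.35 for Cox7a1 and -0.26 ± 0.31 for Cox8b, none of which passed the test (with library size only they were -0.01, -0.04 and 0.06). Cox6a2 was at 158.6 ± 43.5 CPM in WT and at 157.6 ± 36.1 CPM in TSK (SD, n = 3). Cox8b was at 53.6, 101.8 and 89.3 CPM in WT and at 81.5, 109.9 and 63.2 CPM in TSK.

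**Figure D3:**
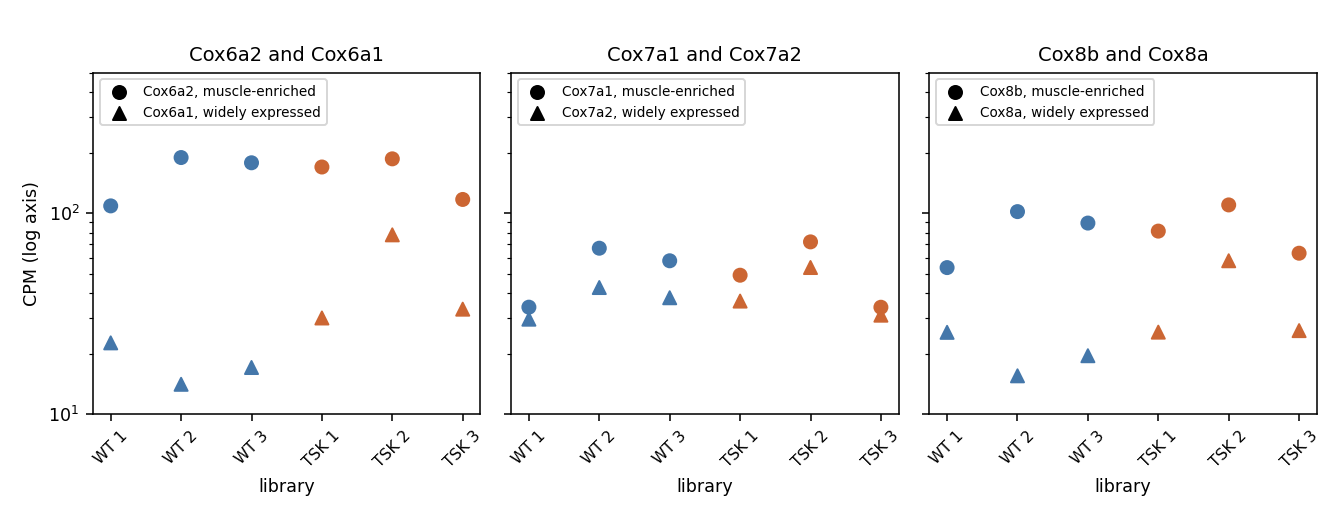
CPM on a log axis in each of the 6 libraries (blue WT, orange TSK) for the muscle-enriched (circles) and widely expressed (triangles) member of 3 pairs of complex IV subunits. Cox6a1 lies at 14.1 to 22.7 CPM in WT and at 30.1, 78.0 and 33.3 CPM in TSK, Cox8a at 15.5 to 25.6 CPM in WT and at 25.6, 58.0 and 26.1 CPM in TSK, and the muscle forms overlap between the groups.

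The 250 bases before the RefSeq start of 3 of these genes are shown, for the 2 forms that did not follow the other members and for the muscle partner of Cox8a (RefSeq, GRCm38.p6, written 5′ to 3′ on the strand of the gene). Cox6a1 lies on the minus strand at chr5:115348959-115349208, Cox8a on the minus strand at chr19:7217617-7217866 and Cox8b on the minus strand at chr7:140900447-140900696. Capitals mark a match to a searched motif, which is a description and not a shown binding site.
Cox6a1: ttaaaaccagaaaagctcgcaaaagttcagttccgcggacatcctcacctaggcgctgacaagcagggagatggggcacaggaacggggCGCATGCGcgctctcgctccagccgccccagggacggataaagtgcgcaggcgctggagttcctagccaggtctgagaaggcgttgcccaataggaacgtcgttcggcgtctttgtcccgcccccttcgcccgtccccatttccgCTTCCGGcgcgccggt
Cox8a: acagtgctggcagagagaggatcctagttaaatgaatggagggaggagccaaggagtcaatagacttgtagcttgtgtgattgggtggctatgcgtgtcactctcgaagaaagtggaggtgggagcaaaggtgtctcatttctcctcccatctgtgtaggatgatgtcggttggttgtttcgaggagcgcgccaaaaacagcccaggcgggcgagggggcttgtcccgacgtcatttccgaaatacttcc
Cox8b: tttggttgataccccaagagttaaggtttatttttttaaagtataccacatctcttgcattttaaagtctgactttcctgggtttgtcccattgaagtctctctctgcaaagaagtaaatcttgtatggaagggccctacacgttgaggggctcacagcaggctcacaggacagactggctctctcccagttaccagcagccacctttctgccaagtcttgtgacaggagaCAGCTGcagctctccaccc
In Cox6a1 the first capitals hold the NRF1 core GCATGCG in both orientations, which overlap, from 161 to 154 bases before the start, and the second hold the ETS core CCGGAAG on the other strand, from 16 to 10 bases before it. GENCODE places the gene start of Cox6a1 23 bases further upstream, so the second match lies within its annotated transcript. Cox8b holds the muscle E-box CAGCTG from 19 to 14 bases before the start, while neither Cox8a nor Cox7a1, another muscle form with a stretch in the table (not shown), holds any of the motifs searched. For Cox6a2 no stretch was found. NRF1, GABP (of the ETS family), YY1 and the oestrogen-related receptors are known regulators of respiratory genes. A stretch of this length was found for 68 members, 66 of them tested. On either strand, GCATGCG occurred in 8 of the 66 (12.1%), against 4.8% of 12910 tested genes. AAGGTCA, the core bound by oestrogen-related receptors, occurred in 5 (7.6%, against 2.9%), and CCGGAAG in 11 (16.7%, against 11.9%). CAGCTG occurred in 6 (9.1%, against 12.1%), and AAGATGG, the YY1 core, in 0 (against 4.2%).

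Skeletal muscle lies beneath the dorsal skin, and its genes took a large part of the counts. A list of 19 adult muscle genes made up 17.8%, 26.0% and 24.6% of the WT libraries (1 to 3) and 17.6%, 16.7% and 15.4% of the TSK libraries. All TSK libraries lay below all WT libraries, but WT 1 and TSK 1 were nearly equal. The median log2 fold change of the list was -0.80 on the TMM scale, with 16 of 19 genes below 0, 0 called and 11 lower at an unadjusted p below 0.05. In WT the respiratory genes had the same order as muscle (WT 2, WT 3, WT 1), whereas in TSK the highest respiratory sum was in TSK 2, where muscle was intermediate.

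Set against this list of muscle genes, the summed respiratory genes were higher in each TSK library than in any WT library. Per 100 CPM of the muscle list, the members held 3.49, 3.66 and 3.60 CPM in WT and 4.71, 6.55 and 4.27 CPM in TSK. The WT libraries nearly coincided, and all TSK libraries lay above them. The member sums themselves overlapped, while the muscle list took a smaller share in every TSK library. Single members did not all follow. Per 100 CPM of the list, Cox7a1 held 0.0191, 0.0258 and 0.0236 CPM in WT and 0.0279, 0.0432 and 0.0222 CPM in TSK, which overlapped. For the summed members the ratio of the means was 1.44, and 1.25 without TSK 2. The groups also did not overlap with Ttn, Myh4, Acta1 or Ckm alone as the denominator, where the ratios were 1.42, 1.85, 1.34 and 1.46, or with the list less Ttn and Myh4 (1.35). Of these denominators, Myh4, Acta1 and Ckm themselves lay below 0, with log2 fold changes of -1.09, -0.66 and -0.80. The 3 list genes above 0, Myh2 (1.26), Mb (0.46) and Myh1 (0.09), were not used alone as denominators. The ratio and its denominators were chosen after the values had been seen, and the ratio was not tested. When a muscle score was added to the edgeR fit as a covariate, the members' median log2 fold change was 0.33, with 81 of 83 above 0 and 0 called, and the lowest adjusted p was 0.198 (Ndufb5). The median of all genes was -0.003. At an unadjusted p below 0.05, 10 members were higher and 0 lower, against 9.1% and 5.9% of all genes. The score was -0.31, 0.68 and 0.44 in WT and -0.18, -0.22 and -0.42 in TSK. Only WT 1 lay within the TSK values, so this fit cannot separate muscle from genotype.

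**Figure D4:**
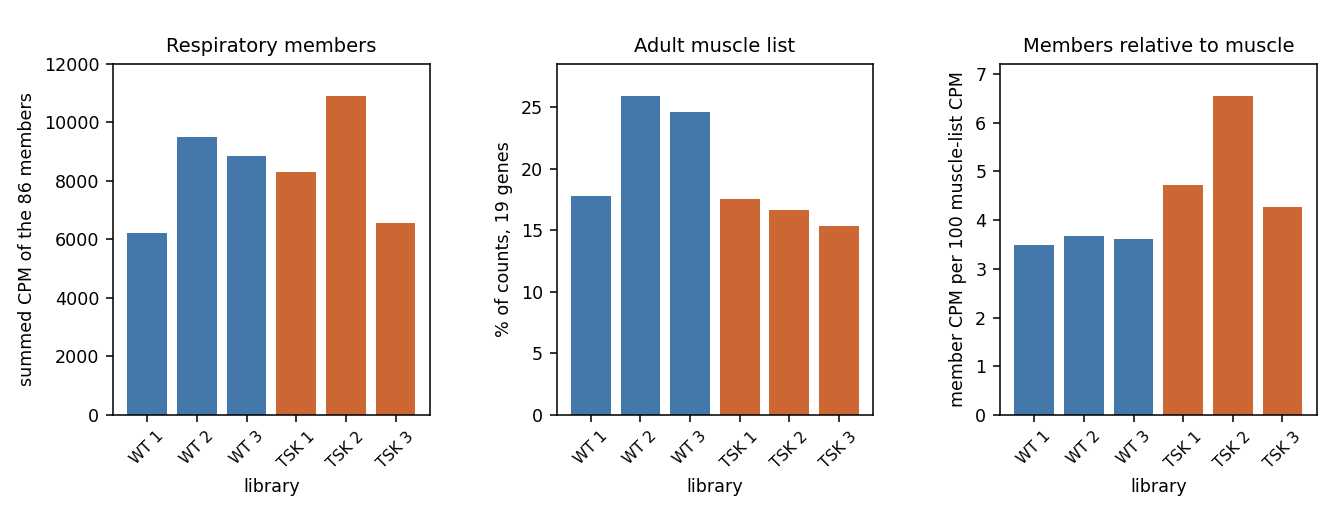
Bars give, for each library (blue WT, orange TSK), the summed CPM of the 86 members, the percentage of counts in the 19 adult muscle genes, and member CPM per 100 CPM of that muscle list. Member sums overlap between the groups, the muscle share is lower in TSK (15.4% to 17.6%) than in WT (17.8% to 26.0%), and the ratio is higher in TSK (4.27 to 6.55) than in WT (3.49 to 3.66).

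Slow and oxidative fibres are the muscle fibres richest in mitochondria. All 9 genes listed for them lay above 0 (median log2 fold change 1.00), with 0 called, and without TSK 2 the median was 0.07, with 6 above 0; Myh2 and Mb are also on the adult muscle list. Among them Myh2, the myosin of fast oxidative fibres, was at 382.1, 643.8 and 627.9 CPM in WT and at 1357, 2121 and 1447 CPM in TSK (1.26 ± 0.31, edgeR adjusted p = 0.067). Myh7, the slow myosin, was at 2.35, 541 and 2.12 CPM in WT and at 134.9, 979.7 and 469.6 CPM in TSK, so a single WT library overlapped TSK. The 13 adipocyte genes took 0.068%, 0.093% and 0.077% of the counts in WT and 0.155%, 0.545% and 0.119% in TSK, and 3 were called higher (Lep, Cfd and Plin1); without TSK 2 the median of the list was 1.12 in place of 2.33, and 6 were called. Ucp1, which defines brown adipocytes, had 2, 0 and 0 counts in WT and 2, 1536 and 0 counts in TSK, so of these libraries TSK 2, which had the highest Cox6a1 and Cox8a, held nearly all of it. Of the 8 tested genes of the brown adipocyte list, 6 lay above 0 and 2 below, with 0 called. The 2 below 0 also count elsewhere, Cox8b as a member and Ppargc1a as a regulator, and Ucp1 was left out by the filter on low counts. Cidea and Kcnk3 were highest in TSK 2 (45.3 and 29.6 CPM), whereas Zic1 was lower in TSK 2 (4.88 CPM) than in TSK 1 and TSK 3 (9.26 and 9.44 CPM), and Elovl3 had a log2 fold change of 0.06 ± 0.62. The median of the brown adipocyte genes was 0.49; without TSK 2 it was 0.00, with 4 above 0, 4 below and 1 called. The part of muscle, fibre type and fat in the respiratory values was not tested.

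Markers of other cell types of skin were counted in the same libraries. The 14 fibroblast genes took 0.691% to 1.065% of the counts in WT and 2.153% to 4.901% in TSK (Dpt and Thy1 called higher). The 14 keratinocyte genes took 0.610% to 1.129% and 0.728% to 1.176%, which overlapped, with 7 genes above 0 and 7 below (median log2 fold change -0.11). Lor and Krtdap, of the outer layers, were called higher, and Krt5 and Krt14, of the basal layer, had log2 fold changes of -0.60 ± 0.30 and -0.61 ± 0.37 (not called). The 10 macrophage genes took 0.024% to 0.038% in WT and 0.044% to 0.124% in TSK, with 0 called. Of 7 genes listed for cardiac-like or smooth muscle, 5 lay above 0, with Myh11 called higher, and 2 below, Des (-0.86 ± 0.22) and Lmod1 (-0.45 ± 0.17). Their share, most of it Des, which skeletal muscle also expresses, was 0.188% to 0.225% in WT and 0.142% to 0.157% in TSK.

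Genes that work with the respiratory chain had 0 called in each list. On the TMM scale the median log2 fold change was -0.22 for 44 assembly factors (37 below 0), -0.18 for 14 citric acid cycle genes (13 below 0), -0.12 for 15 electron carriers and -0.14 for 9 genes of ATP export and the outer membrane. Without TSK 2 these medians were -0.33, -0.45, -0.32 and -0.25. Slc25a4, which exports ATP from mitochondria in muscle, had a log2 fold change of -0.44 ± 0.31. Uqcc2, an assembly factor of complex III, lay lowest of the assembly factors at -0.63 ± 0.20 (edgeR adjusted p = 0.13).

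For fatty acid oxidation, 12 of 13 genes lay above 0 (median 0.18) with 0 called, but without TSK 2, 12 of 13 lay below 0 (median -0.23), again with 0 called. Summed CPM of the list was 829.2, 1045.3 and 1036.4 in WT and 1099.0, 1916.4 and 887.2 in TSK, so TSK 2 stood far above the other libraries and the groups overlapped. Cpt1b, the muscle form of the enzyme that brings fatty acids into mitochondria, had a log2 fold change of -0.33 ± 0.30. Cpt1a, its widely expressed form, was at 52.3, 22.6 and 29.5 CPM in WT and at 57.6, 59.6 and 59.6 CPM in TSK (0.52 ± 0.21, edgeR adjusted p = 0.21). The 16 regulators of respiratory genes had a median of 0.02 (-0.12 without TSK 2), and Ppargc1a, a coactivator of mitochondrial genes, was at 18.5, 34.4 and 29.4 CPM in WT and at 23.6, 27.9 and 16.9 CPM in TSK (-0.58 ± 0.30, edgeR adjusted p = 0.33). The 13 subunits encoded on mitochondrial DNA are listed at 0 in every library. Such transcripts are abundant in muscle, so the 0 is not read as a measurement; whether these genes were removed before deposit is not given in the sources used here, and the nuclear and mitochondrial parts of the chain could not be compared.

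**Figure D5:**
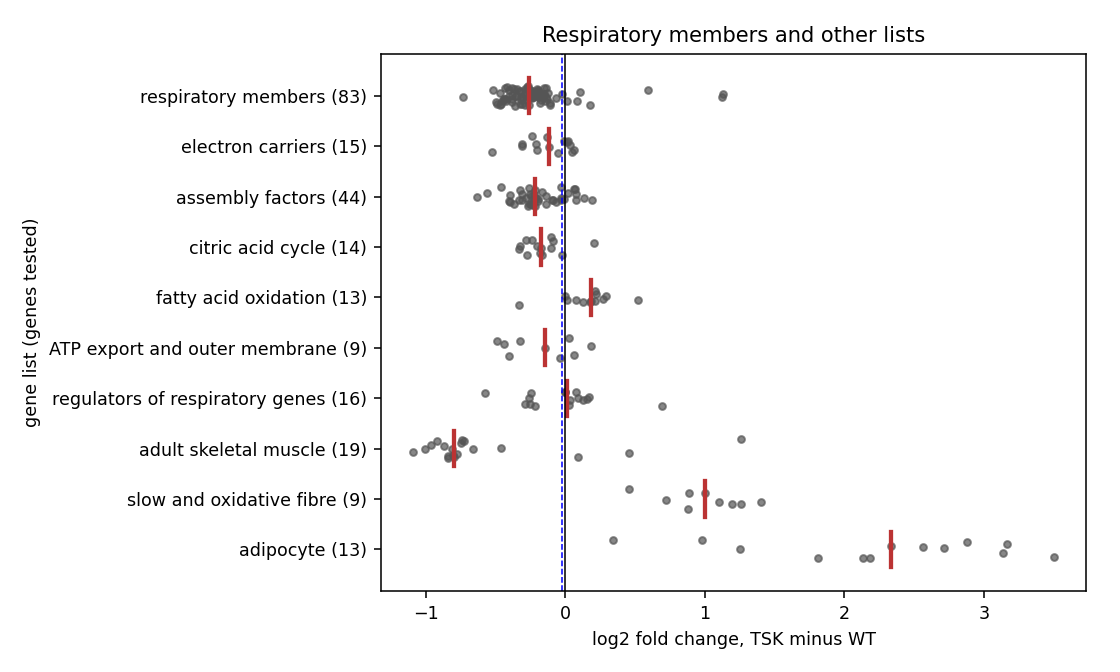
Points are log2 fold changes (TSK minus WT, TMM scale) of the tested genes of each list, red lines the median of the list and the dashed line the median of all tested genes at -0.03. Respiratory members, assembly factors and citric acid cycle genes lie mostly below 0 on this scale (with library size only, 51 of 83 respiratory members lie above 0), adult muscle genes lie lower, and the slow fibre and adipocyte lists lie above 0 (without TSK 2 their medians are 0.07 and 1.12, and that of fatty acid oxidation is -0.23).

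Length and shared sequence were checked as properties of the genes. Respiratory transcripts are short, with a median of 838 bases against 3056 for all tested protein-coding genes. Within length classes the median log2 fold change of members and of all such genes was -0.28 and -0.17 under 600 bases (20 members), -0.27 and -0.13 from 600 to under 1000 bases (31 members), and -0.23 and 0.00 from 1000 bases (32 members). For 14 members at least 50% of the transcript matched other annotated genes at 95% identity or more, many of them pseudogenes, and 34 members had values that were not whole in all 6 libraries, so their counts may be shared with copies. Ndufb4, with 290 to 501 counts per library, holds fewer than its copy Ndufb4c with 336 to 654. The 6 genes of the isoform pairs matched no other transcript, except for 70 bases that Cox6a2 shares with Itgad on the opposite strand.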

How the data were processed

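Total RNA from dorsal skin of 3 WT and 3 TSK mice was sequenced by the authors after depletion of ribosomal RNA, as stranded libraries with single-end reads of 50 bases. Per the methods of the study and the submitters' processing notes, reads were demultiplexed with bcl2fastq 2.19.1.403, aligned with STAR to mm10 and quantified with Ensembl transcripts in Partek Flow 11.0. The deposited tables hold estimated counts per gene, called raw, and CPM, scaled by the authors to 1000000 per library. Only 43.3% to 45.4% of non-zero estimated counts were whole (within 0.001), so they were rounded for the count tests, although the tests had been planned for whole counts.

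Groups were taken from the labels. Counts were compared with edgeR 4.0.16 in R 4.3.3 (TMM, filterByExpr, quasi-likelihood F test, all 6 libraries, no covariate), with Benjamini-Hochberg adjustment over 19971 genes. The standard error of a fold change was derived from its F statistic. Isoform shares were compared by exact permutation with scipy 1.17.1. Alternatives were DESeq2 1.42.0, limma 3.58.1 on log2(CPM + 1), other scalings and filters, a muscle covariate, the replicate number as a block, and each library left out. A further alternative applied the thresholds of the study (adjusted p below 0.01, fold above 2.5) to the edgeR fit. The edgeR, DESeq2 and limma steps were tested on simulated data.

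Of 55291 deposited genes, 52907 matched GENCODE M21 (GRCm38) by name, with start and end within 1 base; the deposited end was 1 base further in 52905 of these. By name 82 members matched so and 3 more by position under another name; 1 did not. Transcripts were compared with BLAST 2.17.0 (95% identity, at least 50 bases); length is that of the principal transcript. Named genes were fixed by rule: the isoform pairs, complex I core, complex II, the 5 highest and 5 lowest fold changes, the most abundant member of each complex, untested members, members with another role, and called or abundant genes of other lists; other genes were named after their values were seen. The members, lists and tests were chosen with earlier results of these data known. The labels name no cultures, litters or batches beyond 1 library per sample, so p-values measure the spread between these samples. Libraries of a group differed by more than counting noise (lowest chi-square per degree of freedom 8.04). Every column of values belonged to a labelled sample. Values of some genes are not reported here.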

Additional observations from a re-analysis of the deposited data

How the results depend on the processing

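The count of members called lower was 0 under every alternative run. The count called higher was 0 in the reported test and 1 (Cox6a1) with library size only, with DESeq2, with limma on log2(CPM + 1) and with no filter on low counts. Over the 19971 tested genes, 542 were called higher and 136 lower. With library size only these counts were 1685 and 93, and with limma 1771 and 100. DESeq2 called 1135 higher and 409 lower of 34809 genes, and edgeR with no filter on low counts 1040 and 347 of 34809. The thresholds of the study, applied here to the edgeR fit whereas the study used DESeq2, gave 51 and 7. The muscle covariate gave 35 and 24. Leaving out 1 library gave 713 and 547 (WT 1), 226 and 61 (WT 2), 45 and 15 (WT 3), 433 and 92 (TSK 1), 321 and 60 (TSK 2) or 322 and 65 (TSK 3). The members' median log2 fold change was 0.05 with library size only and 0.05 with limma, 0.33 with the muscle score as covariate, and -0.47 to -0.05 when 1 library was left out; it was lowest without WT 1, where 35 of the 83 members and 10.1% of all genes were lower at an unadjusted p below 0.05 and 0 members were called (lowest adjusted p 0.0526, Ndufa5), and without TSK 2 it was -0.44. The shares of muscle isoforms kept their sign without any 1 library, with differences of -14.87 to -7.64 points for Cox6a2, -5.11 to -0.99 for Cox7a1 and -13.62 to -4.10 for Cox8b. Of 404 values of 27 named members under the alternatives, 330 kept both sign and side of the threshold, 70 changed sign and 4, all of Cox6a1, passed the threshold.

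Named members whose log2 fold change turned positive with library size only were Cox8b 0.057, Cox7a2 0.14, Ndufs1 0.13, Ndufs3 0.033, Ndufs8 0.11, Ndufv1 0.13, Ndufv2 0.032, Sdha 0.17, Sdhb 0.20, Sdhc 0.19, Uqcrc1 0.072, Cox4i1 0.23 and Atp5b 0.076. With limma they were Cox6a2 0.005, Cox8b 0.070, Cox7a2 0.11, Ndufs1 0.13, Ndufs3 0.028, Ndufs8 0.11, Ndufv1 0.12, Ndufv2 0.041, Sdha 0.15, Sdhb 0.19, Sdhc 0.18, Uqcrc1 0.072, Cox4i1 0.21 and Atp5b 0.060. With the muscle covariate the values that changed sign were Cox6a2 0.41, Cox7a1 0.49, Cox8b 0.54, Cox7a2 0.35, Ndufs1 0.53, Ndufs3 0.28, Ndufs7 0.10, Ndufs8 0.40, Ndufv1 0.41, Ndufv2 0.33, Sdha 0.53, Sdhb 0.63, Sdhc 0.46, Cox5b-ps 0.19, Ndufa5 0.058, Uqcr10 0.053, Atp5j 0.12, Ndufa4l2 -0.041, Uqcrc1 0.33, Cox4i1 0.47 and Atp5b 0.35. When each library was left out in turn, the members that changed sign ranged over Sdhd -0.20 to 0.18, Cox7c -0.069 to 0.35, Cox8b -0.52 to 0.023, Cox7a2 -0.41 to 0.042, Ndufs1 -0.42 to 0.049, Ndufs8 -0.41 to 0.025, Ndufv1 -0.40 to 0.030, Sdha -0.42 to 0.094, Sdhb -0.37 to 0.15, Sdhc -0.32 to 0.075, Ndufa4l2 -0.014 to 0.38 and Cox4i1 -0.27 to 0.12. The cause was not tested. As the muscle score largely followed genotype, the values with that covariate do not separate muscle from genotype.

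With the replicate number as a block, the members' median was -0.23, and 0 members were called (Cox6a1 adjusted p 0.129). The labels do not say whether same-numbered mice are pairs. Correlations of same-numbered libraries were 0.0112, 0.1673 and -0.0938, which with 3 mice a group cannot settle it. The denominators of the muscle ratio, its values without single libraries (1.25 to 1.57) and the medians of other lists without TSK 2 were chosen after seeing the data. With 3 mice a group, median intervals of -0.86 to 0.35 limit what could be detected.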
